A study of Homo sapiens with 18 samples.

Results

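The 29 genes described here make cholesterol, move it through the cell, or control the transcription factor SREBP2 (sterol regulatory element binding protein 2), and they were followed in U87 cells given a rexinoid. They were listed by name as a pathway and are 29 of the 60675 gene IDs in the tables. All 29 passed the filter on low values, at least 1 TPM (transcripts of the gene relative to all transcripts of the library) in at least 3 of the 18 libraries, which left 18269 genes tested. U87 is an established human glioblastoma line. The cells, labelled as glial and as carrying no genetic modification, received 1 dose for 24 h. The 6 groups were ethanol, the vehicle and negative control; 100 nM bexarotene, an agonist of the retinoid X receptors (RXR) that served as the reference compound; and 100 nM of A34, A41, A80 or A98, rexinoids that the labels name by code. Each group had 3 libraries, and all came from this 1 cell line.

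As background, animal cells make cholesterol from acetyl-CoA, first along the mevalonate pathway to farnesyl diphosphate and then through squalene and lanosterol. SREBP2 is made as a membrane-bound precursor in the endoplasmic reticulum. When membrane cholesterol is low, SCAP escorts it to the Golgi apparatus for cleavage, and the released factor turns on most genes of the pathway. When cholesterol is ample, INSIG1 and INSIG2 hold SCAP and the precursor back. Glioblastoma cells are known for a high demand for cholesterol and for a sensitivity to its export, which the liver X receptors (LXR), partners of RXR on DNA, switch on.

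Levels are TPM divided by a scaling factor for each library (scaled TPM). This was needed because 3 libraries were rich in ribosomal RNA: A41 replicate 2 (56.1% of its TPM), bexarotene replicate 1 (44.9%) and ethanol replicate 2 (35.5%). In each of the 15 others it took 0.369% to 4.44%. Fold changes are differences in log2(scaled TPM + 1), which understates the change of low genes. They were tested two-sided with limma over all 18 libraries and 18269 genes, with Benjamini-Hochberg adjustment within each comparison, and a gene is said to have risen or fallen only at an adjusted p under 0.05. Libraries rested on 1.31 to 3.89 gigabases of aligned sequence (median 2.08). Of 10 astroglial and glioma markers, VIM (4058 scaled TPM over the 18 libraries), CD44 (1015), FN1 (299), CLU (199), GJA1 (69.2) and SLC1A3 (20.9) were present, while GFAP (0.788), ALDH1L1 (0.476), AQP4 (0.0476) and S100B (0.00971) were below 1. Among markers of leukocytes and microglia, PTPRC (0.0574) and AIF1 (0.00196) were near 0, and CD68 (177) and CSF1R (12.4) were not. The neuronal markers TUBB3 (69.03) and SNAP25 (14.2) were present too, RBFOX3 (0.187) was near 0, and the oligodendrocyte markers ran from 0.000626 (MOG) to 1.24 (MBP). Levels of the neuronal marker SYT1 and of the endothelial and epithelial markers on the same list are not given here.

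SREBF2, the gene of SREBP2, was the one member that rose, with A41 and in the mean of the 5 compounds. Both calls were lost without the libraries rich in ribosomal RNA and with TPM as deposited. The A41 call was also lost in a fit to only the libraries compared. All 15 rexinoid libraries lay above all 3 ethanol libraries for SREBF2, and the 3 A41 libraries lay above all the others. No other member separated the 15 rexinoid libraries from ethanol, and 0.816% of the genes tested did so upwards. In the fit without a replicate block, no enzyme, INSIG gene or sterol transporter passed the test against ethanol with any of the 5 compounds. In that fit no member passed between any 2 rexinoids either. With the replicate number of the titles as a block, NPC1 passed for A41 against bexarotene, A34 and A80. Against ethanol, SREBF2, NPC1 and DHCR7 then passed with A41, and SREBF2 and INSIG2 with A34. The share of all genes called with a block is not given here. The heat map of the 29 members by library shows the levels.

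**Figure D1:**
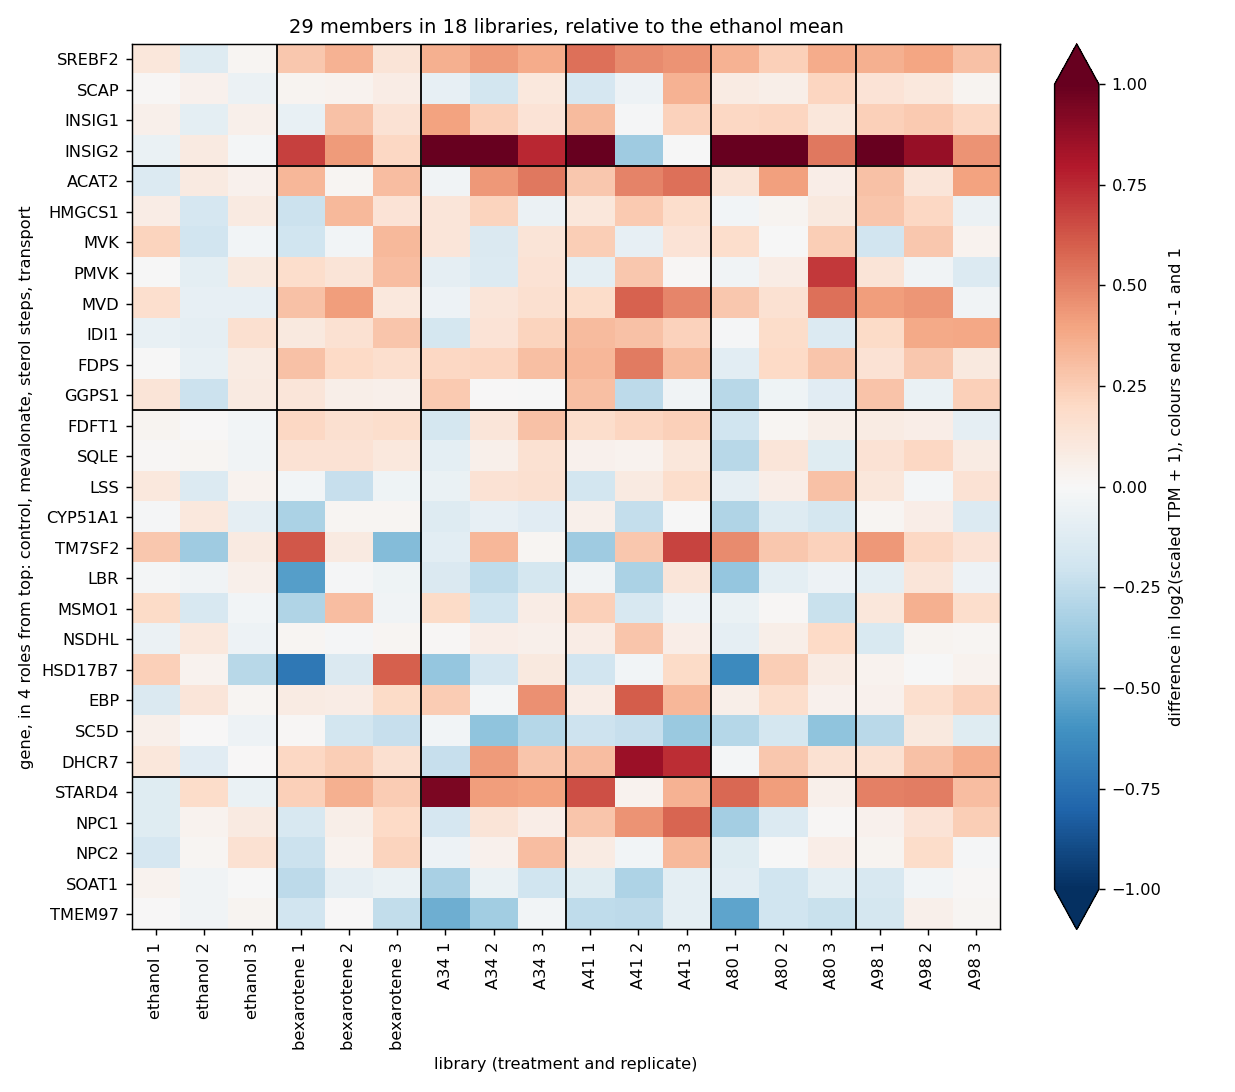
Each cell is 1 gene (rows, ordered by role) in 1 library (columns, 3 per treatment), coloured by its log2(scaled TPM + 1) minus the mean of the 3 ethanol libraries, with red above and blue below. The SREBF2 row is red in all 15 rexinoid libraries, and the INSIG2 row is darkest in replicate 1 of A34 and A80, at 61.04 and 57.1 scaled TPM.

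The promoters of 4 members are shown because the results below turn on these genes and because SREBP2 is known to bind sterol regulatory elements near the starts of its targets, usually beside the CCAAT box of the factor NF-Y. The 250 bases before the RefSeq start of each gene (GRCh38.p14, read 5′ to 3′ on the gene's strand) are printed, with every match to the sterol element core CACNCCAC or to CCAAT on either strand in capitals. The windows are chr22:41832855-41833104 on the + strand, chr7:155297628-155297877 on the + strand, chr1:155308616-155308865 on the + strand and chr18:23586507-23586756 on the − strand.
SREBF2: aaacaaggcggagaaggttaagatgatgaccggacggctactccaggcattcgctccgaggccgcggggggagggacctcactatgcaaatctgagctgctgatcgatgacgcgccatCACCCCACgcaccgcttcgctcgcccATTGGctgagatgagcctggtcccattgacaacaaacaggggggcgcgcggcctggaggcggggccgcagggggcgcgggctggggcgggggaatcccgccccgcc
INSIG1: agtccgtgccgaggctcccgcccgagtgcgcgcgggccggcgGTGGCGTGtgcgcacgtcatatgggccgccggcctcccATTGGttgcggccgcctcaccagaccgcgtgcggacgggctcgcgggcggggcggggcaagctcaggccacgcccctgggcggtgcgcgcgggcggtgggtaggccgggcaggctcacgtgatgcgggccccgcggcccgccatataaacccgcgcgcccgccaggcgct
FDPS: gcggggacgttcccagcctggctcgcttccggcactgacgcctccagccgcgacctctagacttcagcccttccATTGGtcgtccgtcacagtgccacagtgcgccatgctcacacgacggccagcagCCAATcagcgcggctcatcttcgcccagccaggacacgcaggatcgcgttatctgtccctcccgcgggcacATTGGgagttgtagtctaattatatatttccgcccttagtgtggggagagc
NPC1: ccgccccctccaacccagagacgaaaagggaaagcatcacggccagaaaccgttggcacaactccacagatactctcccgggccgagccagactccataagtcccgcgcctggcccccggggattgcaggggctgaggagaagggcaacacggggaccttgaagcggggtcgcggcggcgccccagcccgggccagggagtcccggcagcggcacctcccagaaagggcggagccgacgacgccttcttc
The SREBF2 promoter holds the core on its own strand, with its first base 132 bases before the start, and an inverted CCAAT box that begins 106 bases before it. The INSIG1 promoter holds both on the opposite strand, 208 and 170 bases before the start, FDPS holds 3 CCAAT boxes and no core, and this NPC1 window holds neither string.

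Promoter windows in RefSeq, of 300 bases each including 50 after the start, were matched for 26 of the 29 members, in 35 windows, and ACAT2, FDFT1 and SQLE were not matched. The longer string TCACNCCAC, which contains the core, was in 1 of the 35 windows, that of SREBF2, and in 1.13% of all 35116 windows. The core CACNCCAC was in 5 of 35 (14.3%), belonging to SREBF2, INSIG1, IDI1 and SC5D, against 5.87% of all windows. SC5D has 2 overlapping windows that share 1 match, so the 5 windows hold 4 separate sites. CCAAT was in 22 of 35 (62.9%), against 34.6% of all windows. Both strands were searched. A match is a match of letters, and these data hold no measure of binding.

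Among the control genes, SREBF2 (ENSG00000198911, chr22:41833079-41907307 on the + strand of GRCh38) was 17.8, 14.9 and 16.6 scaled TPM in ethanol replicates 1, 2 and 3. It was 19.98, 21.1 and 18.01 with bexarotene, 21.3, 22.4 and 21.5 with A34 and 24.5, 23.1 and 22.7 with A41. It was 21.1, 19.5 and 21.4 with A80 and 21.2, 21.9 and 20.3 with A98. The lowest rexinoid library, bexarotene replicate 3, was thus just above the highest ethanol library, and the lowest A41 library was above the highest of the 15 other libraries, at 22.4. FDPS and NPC1 were the other members with all A41 libraries on top, a pattern of 119 genes in all (0.651% of those tested).

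SREBF2 rose with A41, from 16.4 ± 1.46 to 23.4 ± 0.944 scaled TPM (mean ± SD, n = 3 each), a log2 fold change of 0.49 (95% interval 0.32 to 0.66, limma adjusted p = 0.0056). It was 1 member called of 29, where 0.755% of all genes tested were called with A41. In the mean of the 5 rexinoids against ethanol, SREBF2 also rose, by 0.36 (SE 0.061, limma adjusted p = 0.02), again 1 of 29 against 0.203% of all genes. For the other compounds taken singly, the log2 fold change of SREBF2 was 0.38 with A34 (limma adjusted p = 0.12), 0.35 with A98 (0.29), 0.32 with A80 (0.24) and 0.25 with bexarotene (0.84), none of which passed in this fit. With the replicate number of the titles as a block, or with array quality weights, SREBF2 was called with A34 as well. SREBF2 had the smallest spread within groups of all 29 members, with a pooled SD of 0.0808 on the log2 scale, against a median of 0.162 over the members and 0.207 over all genes tested.

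The A41 call was lost without the 3 libraries rich in ribosomal RNA (log2 fold change 0.43, limma adjusted p = 0.10) and in a fit to the 6 libraries compared (limma adjusted p = 0.17). It was also lost with TPM as deposited, where the value was 0.44 relative to the shift of all genes. The limma adjusted p of 0.86 there is that of the value before the shift was taken off. The A41 call was kept in all 18 fits that left out 1 library. The call for the mean of 5 compounds against ethanol was lost without ethanol replicate 2 (limma adjusted p = 0.19), the lowest ethanol library, and without ethanol replicate 3 (0.13). With the replicate number as a block, 3 members were called with A41: SREBF2, NPC1 (limma adjusted p = 0.0013) and DHCR7 (0.037). The share of all genes called in that fit is not given here. Replicate 2 was rich in ribosomal RNA in both ethanol and A41, and its part in that pairing was not tested.

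**Figure D2:**
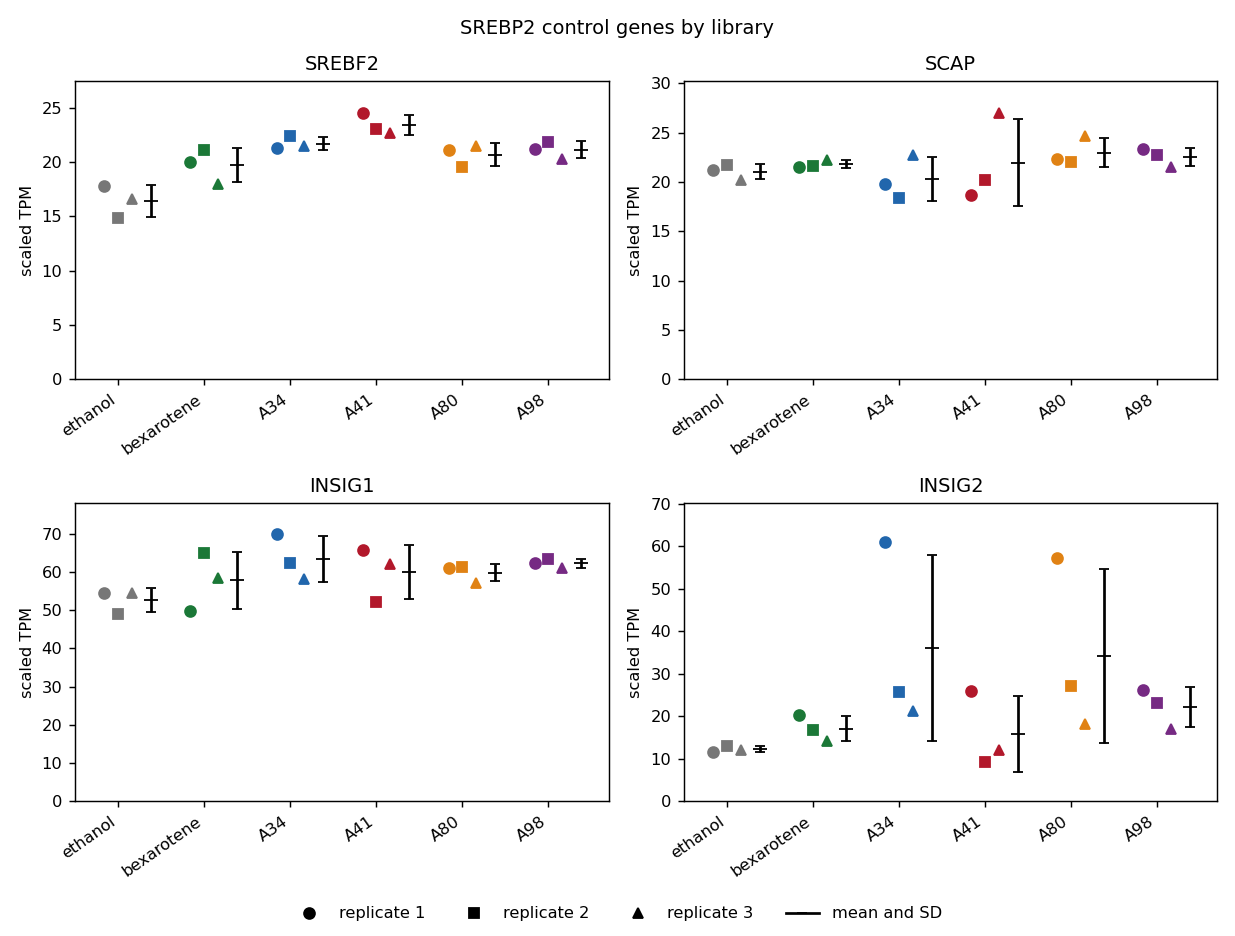
Scaled TPM (y axis, from 0) of SREBF2, SCAP, INSIG1 and INSIG2 in each library, by treatment (x axis), with the replicate number as the marker shape and a black bar for the mean and SD of 3. SREBF2 lies at 14.9 to 17.8 in ethanol and at 22.7 to 24.5 with A41, while INSIG2 spreads from 21.4 to 61.04 within A34 alone.

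The differences in SREBF2 between compounds were small and none passed the test. A41 stood 0.24 above bexarotene (95% interval 0.073 to 0.41, limma adjusted p = 0.56) and 0.17 above A80 (0.0053 to 0.34, 0.62). It stood 0.14 above A98 (interval -0.025 to 0.31) and 0.11 above A34 (-0.061 to 0.27). By mean level the order was A41, A34, A98, A80, bexarotene and ethanol. Neighbours from A34 to bexarotene overlapped in their libraries.

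SCAP, the escort of SREBP2, was 21.2, 21.7 and 20.2 scaled TPM in ethanol. It was 18.7, 20.2 and 27.01 with A41, 19.8, 18.4 and 22.8 with A34 and 23.3, 22.8 and 21.5 with A98. It was 22.3, 21.99 and 24.7 with A80 and 21.5, 21.6 and 22.2 with bexarotene. The rexinoid libraries lay on both sides of ethanol, and A41 held both a low library and the highest of all 18. Its lowest adjusted p against ethanol was 0.79.

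INSIG1, which retains SCAP and is itself a classic SREBP2 target, was 54.6, 49.1 and 54.6 scaled TPM in ethanol. It was 49.9, 64.9 and 58.5 with bexarotene, 69.9, 62.3 and 58.1 with A34 and 65.9, 52.3 and 62.2 with A41. It was 61.02, 61.4 and 57.2 with A80 and 62.5, 63.4 and 61.1 with A98. A34, A80 and A98 lay above ethanol in every library, whereas bexarotene and A41 each had 1 library inside the ethanol range. The log2 fold changes ran from 0.12 with bexarotene to 0.26 with A34, with a lowest limma adjusted p of 0.38. The bexarotene value was 0.036 without bexarotene replicate 2, 0.073 without ethanol replicate 2 and 0.22 without bexarotene replicate 1.

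INSIG2, the paralogue of INSIG1 with the same task, had the largest fold change of the 29 with every compound except A41, and the largest spread. It was 11.6, 13.04 and 12.04 scaled TPM in ethanol replicates 1, 2 and 3, 61.04, 25.6 and 21.4 with A34 and 57.1, 27.03 and 18.1 with A80. It was 20.3, 16.8 and 14.3 with bexarotene, 26.2, 23.2 and 17.02 with A98 and 25.99, 9.35 and 12.2 with A41. All libraries of bexarotene, A34, A80 and A98 were above ethanol, replicate 1 was the highest of its group with each of the 5 compounds, and A41 had 1 library below the ethanol range. The log2 fold change was 1.33 with A34 (limma adjusted p = 0.27), 1.25 with A80 (0.39), 0.78 with A98 (0.78), 0.44 with bexarotene (0.91) and 0.22 with A41 (0.9). None passed without a replicate block, and the pooled SD was 0.572 on the log2 scale. Without replicate 1 of the compound, the value was 0.88 with A34 and 0.81 with A80, and it turned to -0.18 with A41.

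The libraries with much INSIG2 were also those with much RNA of hypoxia genes. NDRG1, a gene induced by low oxygen, was 97.5, 105 and 76.2 scaled TPM in ethanol, 805, 308 and 187 with A34 and 774, 307 and 221 with A80. It was 277, 161 and 142 with bexarotene, 276, 111 and 106 with A41 and 381, 248 and 186 with A98. Over a list of 11 hypoxia genes, the median log2 difference from the ethanol mean was 1.60 in A34 replicate 1 and 1.67 in A80 replicate 1. It was -0.011 in A41 replicate 2 and -0.011 in A41 replicate 3, the 2 A41 libraries whose INSIG2 was within or below the ethanol range. None of the 11 passed the test against ethanol in any of the 5 comparisons. At an unadjusted p under 0.05 there were 10 of the 11 with A34 (10.7% of all genes tested), 10 with A80 (9.41%), 2 with A98 (6.63%), 1 with A41 (10.4%) and 1 with bexarotene (5.75%). Their part in the INSIG2 values was not tested.

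The ratio of INSIG2 to INSIG1, both in scaled TPM and so per length, was 0.213, 0.265 and 0.221 in ethanol. It reached 0.873 in A34 replicate 1 and 0.936 in A80 replicate 1, where INSIG2 came closest to INSIG1. In the remaining rexinoid libraries it lay between 0.179 (A41 replicate 2) and 0.440 (A80 replicate 2).

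**Figure D3:**
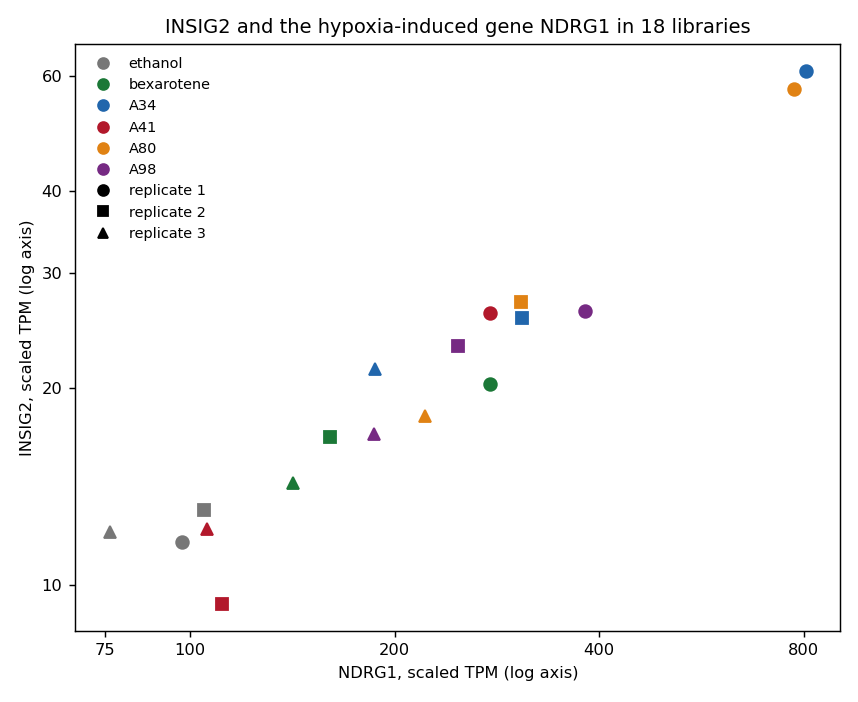
INSIG2 (y axis) against NDRG1 (x axis), both in scaled TPM on log axes, with 1 point per library, coloured by treatment and shaped by replicate number. A34 replicate 1 and A80 replicate 1 stand apart at the top right, and A41 replicates 2 and 3, at NDRG1 of 111 and 106, lie next to the ethanol libraries at the bottom left, which reach 105.

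The 8 enzymes of the mevalonate segment, from acetyl-CoA to the farnesyl and geranylgeranyl diphosphates, had fold changes above 0 in 8 of 8 cases with bexarotene and A41 and in 7 of 8 with each of A34, A80 and A98. Their median log2 fold change was 0.23 with A41, 0.19 with bexarotene, 0.16 with A98, 0.13 with A80 and 0.082 with A34, where the median of all genes tested was within 0.0068 of 0. None of the 8 passed the test against ethanol, and the 5 comparisons share their ethanol libraries.

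FDPS, farnesyl diphosphate synthase (chr1:155308748-155320666, + strand), stood highest among them in level. It was 88.8, 84.5 and 94.4 scaled TPM in ethanol and 113, 128 and 111 with A41. It was 109, 103 and 100.4 with bexarotene, 103, 103 and 109.8 with A34, 82.8, 103 and 108 with A80 and 98.9, 108 and 95.7 with A98. Every library of bexarotene, A34, A41 and A98 was above all ethanol libraries, and A80 replicate 1 was below them. The log2 fold change with A41 was 0.39 (SE 0.091, adjusted p = 0.07). FDPS has 8 pseudogenes in the tables, with 1.28 scaled TPM between them, so reads may be shared with these copies.

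IDI1, isopentenyl diphosphate isomerase, was 20.2, 19.9 and 23.9 scaled TPM in ethanol, 26.7, 26.3 and 25.1 with A41 and 24.5, 27.9 and 28.1 with A98. It was 22.9, 23.8 and 25.9 with bexarotene, 18.7, 23.5 and 25.05 with A34 and 21.1, 24.3 and 19.2 with A80. A41 and A98 lay above all ethanol libraries, at log2 fold changes of 0.28 (SE 0.11, adjusted p = 0.38) and 0.32 (SE 0.11, adjusted p = 0.68). The other 3 groups overlapped ethanol.

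ACAT2, the cytosolic thiolase that opens the pathway, was 11.5, 13.6 and 13.2 scaled TPM in ethanol and 15.6, 18.4 and 19.2 with A41. It was 16.3, 12.9 and 16.1 with bexarotene, 12.4, 17.6 and 18.8 with A34, 14.03, 17.3 and 13.4 with A80 and 15.8, 13.9 and 17.2 with A98. A41 and A98 did not overlap ethanol, and the A41 log2 fold change was 0.44 (SE 0.15, adjusted p = 0.27). ACAT2 overlaps TCP1 (250 scaled TPM) and SOD2 (77.0) on the other strand, and no source used here says whether the counting used strand.

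MVD, mevalonate diphosphate decarboxylase, was 14.1, 11.7 and 11.7 scaled TPM in ethanol, 15.5, 17.1 and 13.5 with bexarotene and 14.3, 19.3 and 17.96 with A41. It was 12.03, 13.7 and 14.1 with A34, 15.2, 14.02 and 18.8 with A80 and 17.02, 17.3 and 12.2 with A98. Only A41 lay wholly above ethanol, by a small margin in replicate 1, and the A41 log2 fold change was 0.42 (SE 0.15, adjusted p = 0.3). With bexarotene it was 0.27 (SE 0.15, adjusted p = 0.87). The remaining 4 enzymes were HMGCS1 (HMG-CoA synthase), the kinases MVK and PMVK, and GGPS1 (geranylgeranyl diphosphate synthase). They averaged 8.04, 7.50, 31.95 and 12.9 scaled TPM in ethanol, and their log2 fold changes over the 5 comparisons lay between -0.15 and 0.25.

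The 12 enzymes from squalene to cholesterol were divided in direction. Above 0 were 8 each with A41, A34 and A98, 6 with bexarotene and 5 with A80. No member of the 12 passed the test against ethanol without a replicate block. Their ethanol levels ran from 2.14 scaled TPM for TM7SF2, a sterol reductase, to 63.4 for EBP, a sterol isomerase.

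DHCR7, the reductase of the last step to cholesterol, had the largest fold change of all 29 with A41. It was 17.96, 15.2 and 16.6 scaled TPM in ethanol and 20.8, 30.9 and 28.4 with A41. It was 19.3, 19.8 and 18.7 with bexarotene, 13.95, 22.6 and 20.3 with A34, 16.3, 20.2 and 18.5 with A80 and 18.5, 20.6 and 21.6 with A98. Bexarotene, A41 and A98 lay above all ethanol libraries, but A41 replicate 1 was below A34 replicate 2 and A98 replicate 3. The A41 log2 fold change was 0.64 (SE 0.16, adjusted p = 0.089), and it passed the test in the fit without A34 replicate 1 (limma adjusted p = 0.026) and in that without A41 replicate 1 (0.029). Over all 18 fits without 1 library, it ran from 0.53 to 0.80, with limma adjusted p from 0.026 to 0.30. A41 replicate 1 was the lowest A41 library for DHCR7, and the highest, A41 replicate 2, was rich in ribosomal RNA. Against the other compounds A41 stood 0.37 (A98) to 0.50 (A80) higher, with limma adjusted p from 0.37 to 0.67.

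SC5D, a sterol desaturase of low level, had fold changes below 0 with every compound. It was 4.84, 4.66 and 4.45 scaled TPM in ethanol, and A41 (3.90, 3.80 and 3.37) and A80 (3.63, 4.001 and 3.27) lay wholly below that. Its log2 fold change was -0.29 with A80 (limma adjusted p = 0.51) and -0.27 with A41 (0.49). TM7SF2 was 2.72, 1.41 and 2.28 scaled TPM in ethanol, 3.29, 2.71 and 2.62 with A80 and 3.18, 2.56 and 2.39 with A98. It was 3.75, 2.29 and 1.28 with bexarotene, 1.86, 2.89 and 2.14 with A34 and 1.41, 2.72 and 3.94 with A41. All groups overlapped ethanol, and the pooled SD was 0.353 on the log2 scale.

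FDFT1 (squalene synthase) and SQLE (squalene epoxidase) stand at the branch into sterols. With bexarotene they were 69.3, 67.02 and 67.9 and 27.1, 27.04 and 26.3 scaled TPM, above ethanol in every library (61.2, 60.2 and 58.7, and 24.6, 24.7 and 23.8). Both also lay above ethanol with A41, and neither did with A34 or A80. With A98, SQLE (27.03, 28.3 and 25.9) lay above ethanol and FDFT1 (63.4, 62.9 and 56.3) overlapped it. The log2 fold changes of the 6 enzymes LSS, CYP51A1, LBR, MSMO1, NSDHL and HSD17B7, which act from lanosterol synthesis onward, were between -0.20 and 0.22. EBP reached 0.34 with A41 (limma adjusted p = 0.35).

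The transport genes include NPC1, which exports cholesterol from lysosomes (chr18:23506184-23586506, − strand). NPC1 was 82.8, 92.2 and 96.1 scaled TPM in ethanol and 109.6, 124 and 135 with A41. It was 80.6, 94.04 and 103 with bexarotene, 80.1, 98.9 and 94.4 with A34, 71.3, 81.8 and 90.7 with A80 and 93.1, 99.2 and 107 with A98. The 3 A41 libraries were the highest of the 18, and the other 4 compounds overlapped ethanol. NPC1 had the smallest p of the 29 in the F test of any difference among the 5 rexinoids, at an adjusted p of 0.37 by limma.

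NPC1 was higher with A41 than with ethanol by 0.44 (SE 0.12, adjusted p = 0.12) in log2 and higher than with A80 by 0.59 (SE 0.12, adjusted p = 0.062), and did not pass in either comparison. The A41 difference was 0.43 against A34 (limma adjusted p = 0.33), 0.41 against bexarotene (0.39) and 0.29 against A98 (0.62). The 95% interval against A80 was 0.35 to 0.84, and that against A98 was 0.047 to 0.54. These values are from the fit without a replicate block. With the replicate number of the titles as a block, NPC1 was called with A41 against ethanol, bexarotene, A34 and A80, and in the F test. NPC1 overlaps RMC1 on the other strand, which averaged 27.9 scaled TPM and differed by 0.04 between A41 and ethanol (limma adjusted p = 0.93). NPC2, the soluble partner of NPC1 in the lysosome, overlapped ethanol with every compound, at 73.3 to 91.8 scaled TPM in ethanol and 80.8 to 103 with A41.

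STARD4, a carrier of cholesterol between membranes and a known SREBP2 target, was 9.38, 11.8 and 9.80 scaled TPM in ethanol. It was 12.3, 13.4 and 12.4 with bexarotene, 20.6, 14.1 and 13.9 with A34 and 16.6, 10.5 and 13.4 with A41. It was 15.8, 14.1 and 10.7 with A80 and 14.99, 15.1 and 12.97 with A98. Bexarotene, A34 and A98 lay above ethanol in every library, while A41 replicate 2 and A80 replicate 3 fell inside the ethanol range. STARD4 was among the 3 members of largest fold change with bexarotene, A34, A80 and A98, at 0.28, 0.59, 0.35 and 0.44, and its lowest limma adjusted p was 0.25, with A34. Its highest library was A34 replicate 1, which was also the highest for INSIG2.

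SOAT1, which esterifies cholesterol for storage, and TMEM97, a protein that binds NPC1, had fold changes below 0 with every compound. SOAT1 was 12.1, 11.5 and 11.8 scaled TPM in ethanol and lay below that in all libraries of bexarotene, A34, A41 and A80, whose range was 9.27 to 11.3. A98, at 10.5, 11.6 and 11.9, overlapped ethanol. TMEM97 was 25.2, 24.4 and 25.6 in ethanol, 20.9, 20.8 and 23.4 with A41 and 17.1, 21.8 and 21.4 with A80, and its log2 fold change with A80 was -0.31 (SE 0.12, adjusted p = 0.44).

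**Figure D4:**
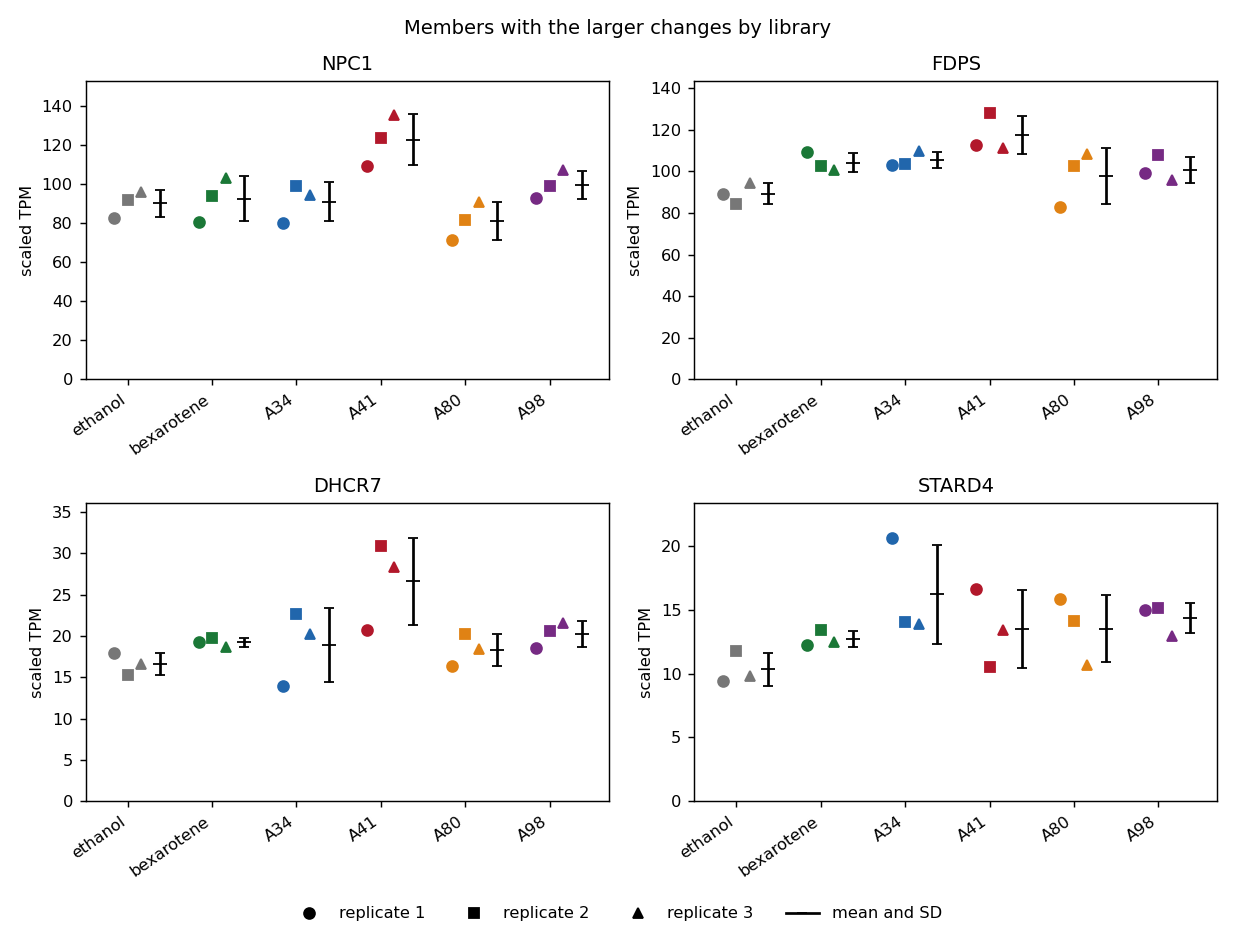
Scaled TPM (y axis, from 0) of NPC1, FDPS, DHCR7 and STARD4 in each library, by treatment (x axis), with the replicate number as the marker shape and a black bar for the mean and SD of 3. The A41 libraries of NPC1, at 109.6 to 135, and of FDPS, at 111 to 128, sit above all others, whereas those of DHCR7 and STARD4 overlap other compounds.

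Counted over all 29 members, most fold changes against ethanol were above 0 and small. They were above 0 for 23 members with A41, 22 with A98, 21 each with bexarotene and A34, and 17 with A80, where 48.7% to 50.9% of all genes tested were above 0. The median over the members was 0.14 with A41, 0.14 with A98, 0.083 with bexarotene, 0.076 with A34 and 0.056 with A80. Leaving out 1 library moved the median to between -0.0058 (without A34 replicate 3) and 0.12 (without ethanol replicate 1) with A34. With A80 it moved to between 0.00067 (without A80 replicate 3) and 0.12 (without A80 replicate 1). The 5 sets share the 3 ethanol libraries, so they are not 5 separate observations.

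By the test, 0 of the 29 were called with bexarotene (all genes, 0.0547%), A34 (0.0821%), A80 (0.0438%) and A98 (0.0328%), using limma with Benjamini-Hochberg adjustment and no replicate block. At an unadjusted p under 0.05 there were 2 members with bexarotene (SREBF2 and FDPS, where 5.75% of all genes had such a p), 9 with A41 (10.4%), 6 with A34 (10.7%), 5 with A80 (9.41%) and 4 with A98 (6.63%). The 9 with A41 were all higher: SREBF2, ACAT2, MVD, IDI1, FDPS, FDFT1, EBP, DHCR7 and NPC1. With A34 the one lower member was TMEM97, and with A80 the 2 lower members were SC5D and TMEM97.

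By separation of the libraries, 8 members lay wholly above and 1 wholly below ethanol with bexarotene, where 6.88% and 5.9% of all genes did. The counts were 5 and 2 with A34 (all genes 8.22% and 8.36%), 10 and 3 with A41 (8.27% and 7.67%), 4 and 5 with A80 (8.6% and 7.78%) and 9 and 0 with A98 (8.49% and 8.18%). The 10 above ethanol with A41 were SREBF2, 5 mevalonate enzymes (ACAT2, HMGCS1, MVD, IDI1 and FDPS), FDFT1, SQLE, DHCR7 and NPC1. The 4 above with A80 were the 4 control genes, and the 5 below with A80 were CYP51A1, LBR, SC5D, SOAT1 and TMEM97.

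**Figure D5:**
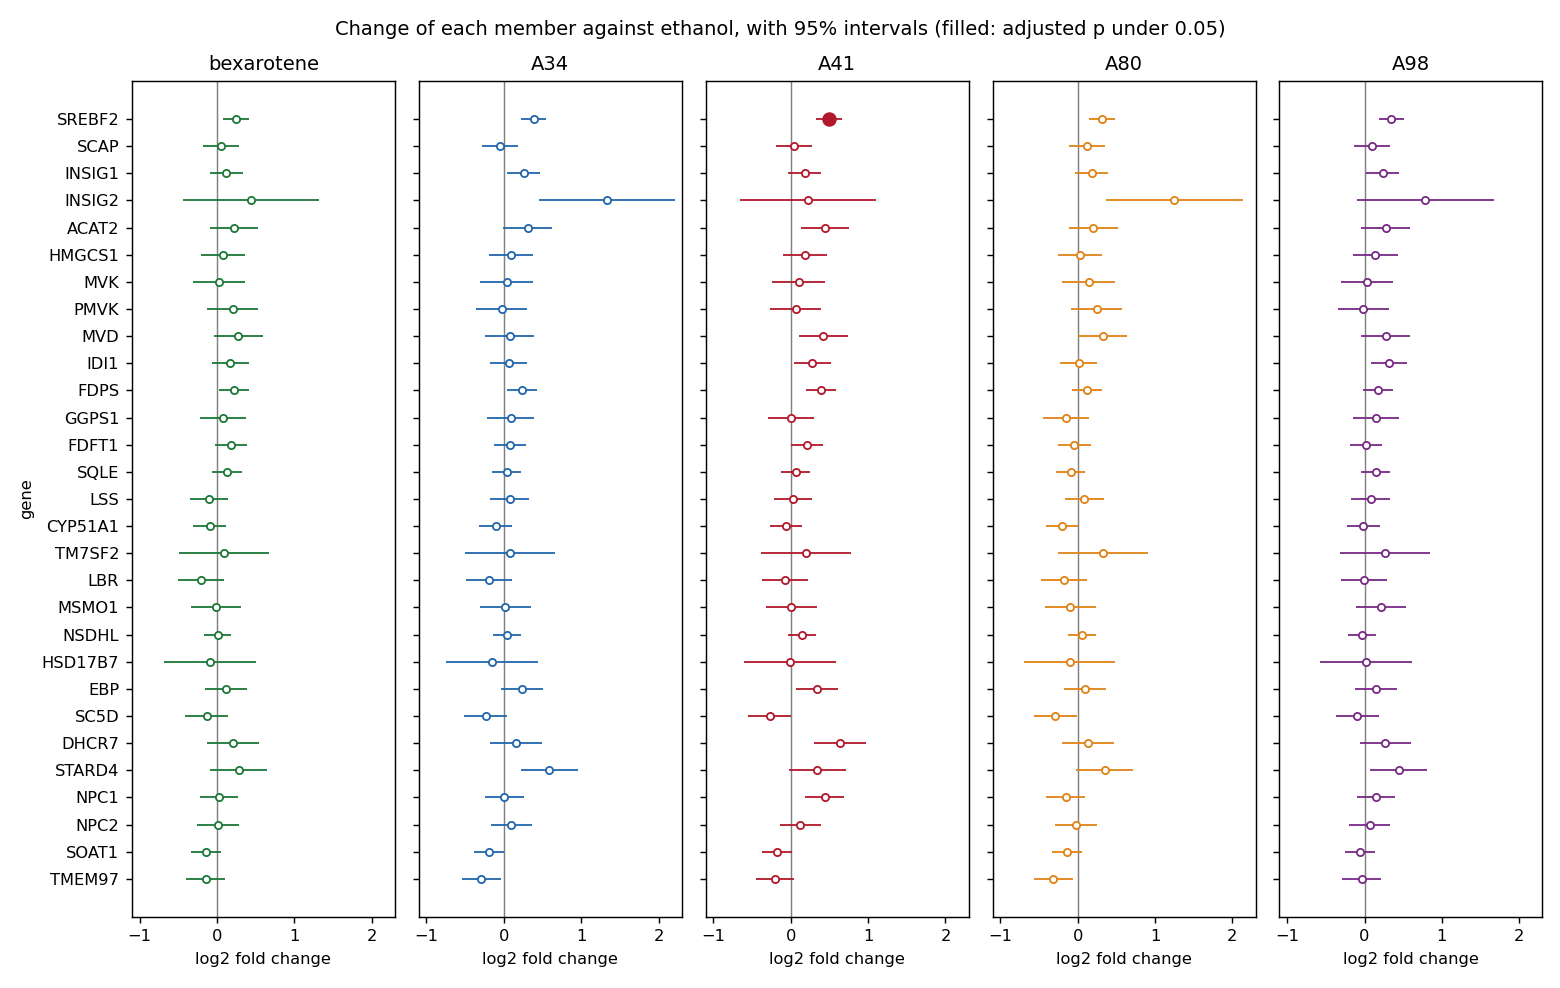
Log2 fold change against ethanol (x axis) of each of the 29 members (y axis, ordered by role), in 1 panel per compound, with 95% intervals from limma and a filled point where the adjusted p is under 0.05. The only filled point is SREBF2 with A41, at 0.49, and the interval of INSIG2 is the widest in each panel.

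At the same dose and time, the 10 pairs of compounds differed in 0 of the 29 members by limma's test without a replicate block. Of all genes tested, 0.131% were called between A41 and A98, 0.126% between A41 and A80, 0.115% between A41 and bexarotene and 0.0712% between A41 and A34. In the other 6 pairs the share was 0.00547% (A98 against bexarotene, A34 and A80) or 0% (A34 and A80 against bexarotene, and A80 against A34). At an unadjusted p under 0.05, 7 members differed between A41 and A80 (7.95% of all genes), and 3 did between A41 and bexarotene (6.23%), 4 between A41 and A34 (7.88%) and 3 between A41 and A98 (7.15%). Without A41 in the pair, the number was 4 for A98 against A80 (4.04%), 2 for A80 against bexarotene (6.06%), 2 for A98 against A34 (4.51%) and 1 for A34 against bexarotene (5.2%). It was 0 for A98 against bexarotene (6.86%) and 0 for A80 against A34 (3.55%). In the F test over the 5 compounds, also without a block, 0 members were called (all genes, 0.0657%). There, 2 members, NPC1 and DHCR7, had an unadjusted p under 0.05 (all genes, 6.32%). Such results do not show that the compounds act alike on these genes, and the intervals given above for SREBF2 and NPC1 allow differences of up to 0.41 and 0.84 in log2.

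Genes around the pathway gave 0 calls against ethanol in 4 lists, for each of the 5 compounds by limma. These were 9 genes of SREBP processing and degradation (such as the site proteases MBTPS1 and MBTPS2), 12 of the isoprenoid branches, 12 tested of 13 in sterol trafficking, storage and lipoprotein uptake, and 2 tested of 5 oxysterol enzymes. At an unadjusted p under 0.05, of the 35 genes tested in these 4 lists there were 10 with A34 (10.7% of all genes), 6 with A80 (9.41%), 3 with A98 (6.63%), 3 with A41 (10.4%) and 2 with bexarotene (5.75%). By contrast, 1 of 3 tested LXR targets of sterol efflux rose with every compound: ABCA1, the exporter of cholesterol to lipoprotein, by 0.83 (A80) to 1.49 (A34) in log2, with a highest limma adjusted p of 0.013.

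Among 9 genes of the sister branch under SREBF1, which governs fatty acid synthesis, SCD, a fatty acid desaturase, rose with every compound, by 1.21 (A80) to 1.91 (A34). SREBF1 itself rose with A41, by 1.06 (limma adjusted p = 0.024), and in the mean of the 5 rexinoids against ethanol, by 0.92 (0.025). Its log2 fold change was 1.13 with A34 (limma adjusted p = 0.065), 0.81 with bexarotene (0.84), 0.81 with A98 (0.5) and 0.78 with A80 (0.27), and all 15 rexinoid libraries lay above ethanol. FADS1, another desaturase, rose with A41 by 0.34 (limma adjusted p = 0.024). The change of SREBF2 with A41, 0.49, was smaller than that of SREBF1, and the difference between these genes was not tested. None of 8 proliferation genes passed the test with any compound.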

How the data were processed

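RNA was measured in U87 cells in 6 groups of 3 libraries, taken from the treatment in each library's labels. The deposited tables of A98 carry the code A90, and some replicate numbers there differ from the titles, which were followed. Separate cultures for the 3 libraries of a group are not stated, so p-values rest on the spread between libraries alone and that spread may be technical. Per the labels' protocols, ribosomal RNA was depleted before random-primed sequencing. Per the submitters' processing notes, the tools were STAR, StringTie and MultiQC on build GRCh38. Neither tool versions nor annotation release nor strand setting are stated in any source used here.

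The deposited data are 1 table of gene abundances per library. TPM, a share of all transcripts, and FPKM, fragments per kilobase relative to all fragments, were computed by the authors, per the file headers. Coverage, a signal of mean read depth over a gene, stood in the same deposited tables. The ratio of coverage to FPKM in genes with a single transcript gave the aligned bases (1.31 to 3.89 gigabases), and genes of low TPM are measured least precisely. There are no read counts. Each library's TPM was scaled by its median-of-ratios factor (0.417 to 1.20), computed over the 16349 tested genes that no library lists at 0, because ribosomal RNA lowered all other genes in 3 libraries.

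Of 60675 gene IDs, 18269 reached 1 TPM in 3 or more of the 18 libraries and were tested with limma 3.58.1 in R 4.3.3 on log2(scaled TPM + 1), with a pseudocount of 1 and a trend on the mean level. The fit was tested on simulated data. The comparisons were each rexinoid against ethanol, the 10 pairs of rexinoids, the mean of 5 against ethanol and an F test among the 5. Alternatives were TPM as deposited, upper-quartile scaling, a pseudocount of 0.1, no filter, a replicate block, fits without the 3 libraries rich in ribosomal RNA, array quality weights, fits to only the libraries compared, and leaving out each library.

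Replicate numbers were checked as pairs by the correlation of deviations from the group means. All 3 same-numbered pairs exceeded 0.1 only in A41 against ethanol (r = 0.17, 0.31 and 0.12 across genes), so the blocked count is printed beside that result. The lowest values were -0.34 and -0.36, for replicates 1 and 2 of A41 against bexarotene.

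The members and lists were chosen with earlier results of these data known. Values in every library are given for the 4 control genes, members past the threshold, the 3 members of largest change with each compound and the 3 of smallest p in the F test. FDPS, SC5D, FDFT1, SQLE, SOAT1 and TMEM97 were added after their values were seen. Promoter sequences are RefSeq's.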

Additional observations from a re-analysis of the deposited data

How the results depend on the processing

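The number of members called against ethanol with A41, 1 as reported, was 0 with TPM as deposited, 0 without the 3 libraries rich in ribosomal RNA and 0 in the fit to only the 6 libraries compared. It was 5 with array quality weights (SREBF2, NPC1, FDPS, DHCR7 and ACAT2), 3 with the replicate block by the numbers of the titles, 2 with the block by the numbers in the file names, and 1 to 2 over the 18 fits without 1 library each. The 2 were SREBF2 with DHCR7 (without A34 replicate 1 or A41 replicate 1) or SREBF2 with FDPS (without A80 replicate 1 or A80 replicate 3). For the mean of 5 compounds against ethanol the number, 1 as reported, was 0 with TPM as deposited and 0 without the 3 libraries with much ribosomal RNA. It was 2 with array quality weights (SREBF2 and STARD4), and 0 to 1 without 1 library each, with 0 where ethanol replicate 2 or 3 was left out. The share of all genes called under each of these settings is not given here. These numbers therefore do not show whether calls changed for the members in particular. The cause of these changes was not tested.

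With the replicate block by titles, the number was 2 with A34 (SREBF2 and INSIG2), and 1 (NPC1) for A41 against bexarotene, 1 for A41 against A34, 1 for A41 against A80 and 1 in the F test, where 0 were reported. The block by file numbers also gave 1 (NPC1) in each of those 3 comparisons of A41 and 1 in the F test. For these comparisons the labels give the samples only a shared number, and their same-numbered pairs did not all exceed a correlation of 0.1. For replicates 1, 2 and 3, r was -0.34, -0.36 and 0.18 in A41 against bexarotene. It was 0.23, 0.015 and 0.029 in A41 against A34, and 0.11, 0.020 and 0.13 in A41 against A80. Replicate 1 had the highest INSIG2 with each of the 5 compounds but the lowest in ethanol, and it had the lowest NPC1 in every group. These are genes that the block called, so their order is no separate test of the pairing. Whether same-numbered libraries belong together was not tested beyond that correlation, which cannot exclude it. Array quality weights gave 1 with A34 (SREBF2), 2 for A41 against A80 (NPC1 and DHCR7) and 1 in the F test (NPC1). All other numbers of members called kept their value in these settings. Here too, the share of all genes called is not given.

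The median log2 fold change of the members was 0.14 with bexarotene (0.083 as reported), 0.081 with A98 (0.14 as reported), 0.015 with A34 (0.076 as reported) and 0.017 with A80 (0.056 as reported) without the libraries rich in ribosomal RNA. Over the fits without 1 library it ran from -0.0058 to 0.12 with A34, from 0.00067 to 0.12 with A80, from 0.081 (without ethanol replicate 2) to 0.16 with A98, from 0.088 (without A41 replicate 3) to 0.196 with A41 and from 0.06 to 0.14 (without ethanol replicate 1) with bexarotene. The log2 fold change of INSIG2 with A41, 0.22 as reported, was -0.18 without A41 replicate 1, and ranged from -0.18 to 0.51 over the fits without 1 library. Under TPM as deposited, the median over all genes tested shifted by -0.27 (A41) to 0.15 (A98) against ethanol. Fold changes under it are given relative to that shift, while p-values and calls under it are those before the shift was taken off. Upper-quartile scaling, a pseudocount of 0.1 and no filter (53227 genes tested) moved no call. The effect of depth on single members was not tested. TM7SF2, HSD17B7 and SC5D have the lowest levels of the 29.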
